A study of Mus musculus with 13 samples.

Results

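The regions described here are the 5551 genomic sites at which Nkx2.2 binding was called in ventral neural progenitors, with the read coverage of 3 sequencing libraries around each of them. They are all lines of the deposited Nkx2.2 peak list, out of 23280 lines in the 4 peak lists of the series (Nkx2.2, Nkx6.1, Olig2 and Gli3). Nkx2.2 is a homeodomain transcription factor that Sonic hedgehog signalling induces in the most ventral neuronal progenitors of the neural tube. It is known there mainly as a repressor that recruits Groucho-type corepressors and keeps the genes of neighbouring progenitor domains off. Nkx6.1, another homeodomain protein, and Olig2, a basic helix-loop-helix protein of motor neuron progenitors, act in the same patterning network, and Gli3 is a transcription factor through which hedgehog signalling is read out. In chromatin immunoprecipitation followed by sequencing (ChIP-seq), DNA crosslinked to the factor is enriched with an antibody, and the input is the same fragmented chromatin without that enrichment.

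The series has 13 samples, of which 2 are Nkx2.2 ChIP samples and 2 are their inputs. All 4 came from ventral neural progenitors derived from mouse embryonic stem cells of 1 line, Rosa26-Gli1FLAG, a derivative of YFP3.1 with a mixed background of Swiss Webster, 129 Sv and C57BL6/J. A FLAG-tagged Gli1 at the Rosa26 locus is therefore shared by ChIP and input. Per the labels' protocols, the cells spent 2 days in suspension and 3 more days with 500 nM retinoic acid and 160 to 800 nM of the Smoothened agonist SAG, and were fixed with 1% formaldehyde for 30 minutes. Both ChIP samples used a mix of 3 Nkx2.2 antibodies (DSHB 74.5A5, Sigma HPA003468 and a custom one), and no label says whether the replicates were separate cultures. No sample of RNA or of other cell types entered, so the cell type rests on the labels. The peak lists set beside Nkx2.2 came in part from other cells. The Nkx6.1 and Olig2 lists are attached to samples of the YFP3.1 line itself, cultured with the agonist. The Gli3 list came from dorsal progenitors, induced without SAG, of a V6.5 line with a FLAG-Avi tag at the Gli3 start codon, precipitated with anti-FLAG.

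The coverage table holds 3 libraries, named only by codes in its title. In the order of those codes, the first and second library are the Nkx2.2 ChIP samples (which of them is replicate 1 is not stated) and the third is the input of replicate 2. The labels attach the table to ChIP replicate 2 and to the input of replicate 2, and the peak list to ChIP replicate 1. The input of replicate 1 was not analysed here. That the third place holds an input could be checked in the tables of the other factors. At 80 pairs of Nkx6.1 and Olig2 peaks that lie whole bins apart, the third libraries of both tables were equal at 100% of 10865 bins, and other pairings of their libraries at 6.96% to 10.4%. The labels name exactly 1 sample common to both factors, which is an input. For Nkx2.2 the same place is taken by analogy, together with the levels given below. Rows of the table follow the lines of the list: at 13 pairs of neighbouring Nkx2.2 peaks the shifted coverage agreed at 100% of 1669 bins within each library.

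The first library stood apart in its texture before any comparison. Coverage in each library took only whole multiples of a smallest step, 0.581 in the first, 0.488 in the second and 0.245 in the third, in the scaled units deposited. Isolated stretches of constant height, with a bin of 0 on either side, were counted anywhere in the window around a peak. They were mostly 150 or 175 bp long in the first library, 225 bp in the second and 200 or 225 bp in the third. In the first library 82.2% of 12081 such stretches were higher than 1 step and their mean height was 4.99 steps. The second library had 11.0% above 1 step and a mean of 1.12 steps, and the third 8.49% and 1.10 steps. In the outermost 250 bp to the right of the peaks, 78.3% of bins were 0 in the first library, 36.7% in the second and 17.6% in the third. The library totals and the scaling are not given, so depth is unknown. Whether such stretches are repeated copies of single fragments cannot be read from coverage and was not tested. The levels and ratios of the first library below include them.

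Every peak was 300 bp wide, and the peaks lay on 21 chromosomes. The median distance from a peak centre to the nearest other Nkx2.2 centre was 74.5 kb. At 625 peaks (11.3%) another Nkx2.2 centre lay under 2000 bp away, and at 287 (5.17%) under 300 bp, so neighbouring peaks share bins and are not independent observations.

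Nkx2.2 sites were strongly enriched in the first library, clearly but less so in the second, and only weakly raised in the third. Mean coverage within 250 bp of the centre was 23.8 in the first library, 6.39 in the second and 1.39 in the third. In the flank, the outermost 250 bp on each side of the 4-kb table window, mean coverage was 0.940, 0.604 and 0.597. The ratio of centre to flank was thus 25.3 in the first library, 10.6 in the second and 2.33 in the third. Those ratios put both ChIP libraries above the third, and the flanks of the second and the third library nearly level.

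Taken peak by peak, the median of log2((centre + 1)/(flank mean + 1)), called enrichment from here on, was 3.32 in the first library, 1.76 in the second and 0.46 in the third. Coverage exceeded 2 times the library's flank mean at 5551 peaks in the first library (100%, Wilson 95% interval 99.9% to 100%). In the second library 5346 peaks did so (96.3%, 95.8% to 96.8%), and in the third 2798 (50.4%, 49.1% to 51.7%). These intervals cover counting error over peaks only. Over 10 times the flank lay 95.2% of peaks in the first library, 33.8% in the second and 3 peaks (0.0540%) in the third. Peaks are called where ChIP reads are high, so the enrichment of whichever library the list was called on was fixed by the choice of sites and is given as a description.

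**Figure D1:**
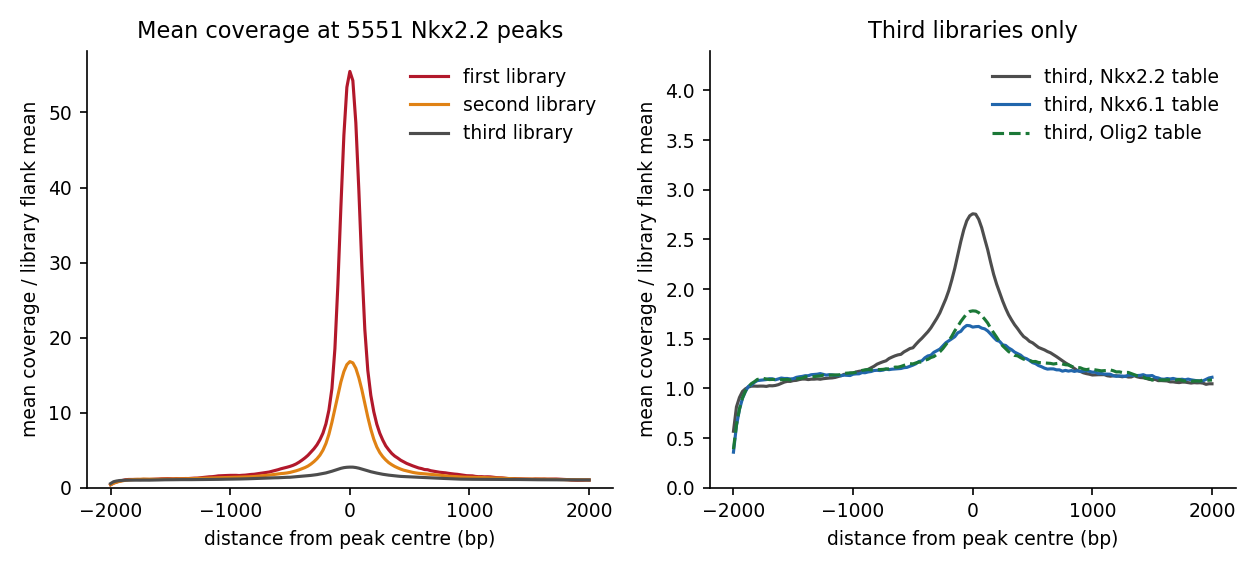
Mean coverage divided by the library's flank mean (vertical axis, starting at 0) against distance from the peak centre in bp (horizontal axis). Left, the 3 libraries of the Nkx2.2 table over 5551 peaks, with both ChIP libraries far above the third; right, the third library alone beside the third libraries of the Nkx6.1 and Olig2 tables, whose low central rises are smaller than that at Nkx2.2 peaks. Bins at the left edge are lower in every library.

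**Figure D2:**
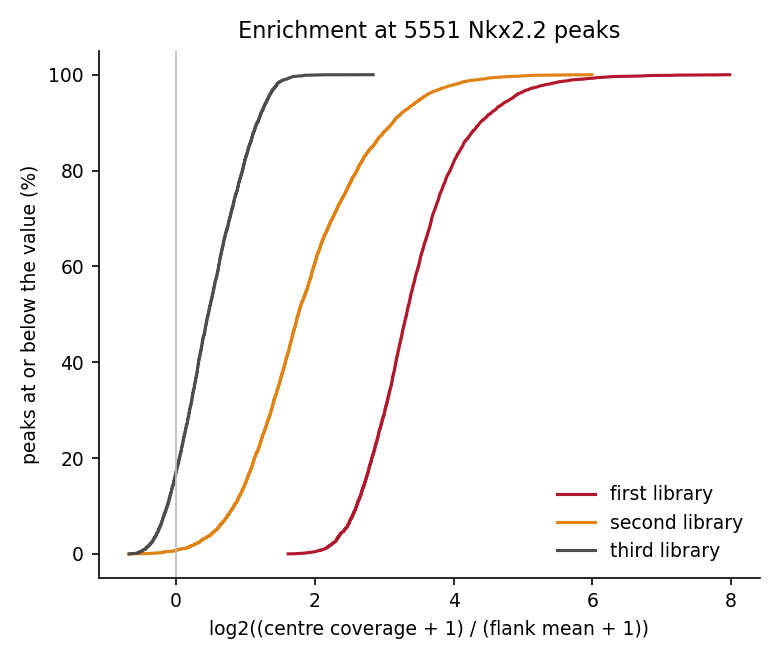
Cumulative share of the 5551 Nkx2.2 peaks (vertical axis, percent) by log2((centre coverage + 1)/(flank mean + 1)) (horizontal axis) for each library. The curves are ordered from the third library through the second to the first, with medians of 0.46, 1.76 and 3.32, and the third library reaches past 0 at most peaks.

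The first library exceeded the third in enrichment at all 5551 peaks, by a median of 2.87 on the log2 scale (SD over peaks 0.95). The second exceeded it at 5115 peaks (92.1%), by a median of 1.22 (SD over peaks 1.09). The mean of the first and second library was above the third at 5547 peaks and below at 4, with a median difference of 2.05. With limma and Benjamini-Hochberg adjustment over all peaks, none of the 5551 peaks was called (0% called). A pseudocount of 0.1 gave 55 calls, all higher. The median standard error of a peak's log2 difference exceeded the median difference itself, because the overall gap between the first and second library counts as spread. After the first and second library were set to 1 common median, a choice made after the count of 0 was seen, limma called 4825 peaks as higher than the third library and 0 as lower (86.9% called, median standard error 0.51). That refit takes the gap between the ChIP libraries out of the spread, and the sites were listed for high ChIP reads, so its count describes the list and is no test of binding. With 2 libraries against 1, each fit has 1 residual degree of freedom per peak and assumes that the third library, alone in its group, varies like the first and second. Since nothing says that the ChIP samples were separate cultures, the p-values measure only the spread between these libraries.

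The most enriched sites show the scale of the ChIP signal. The 300-bp peak at chr1:120810604-120810903 (mm9, as are all coordinates here) had a coverage of 489.2 in the first library, 75.5 in the second and 0.897 in the third. At chr6:53688358-53688657 the values were 356.5, 101.2 and 0.792, and the second library had its highest value of all peaks. At chr10:92697106-92697405 they were 458.4, 59.3 and 1.32. At these 3 sites both ChIP libraries stood far above their flank means, while the third library had at most 1.32 beside a flank mean of 0.597. The peak at chr13:60272342-60272641 had 272.6, 88.4 and 0.489, and that at chr9:41831542-41831841 had 199.4, 88.8 and 0.431. The peaks on chromosomes 13 and 9 overlapped both a Nkx6.1 and an Olig2 peak, and the one on chromosome 6 an Olig2 peak. The remaining ones overlapped no other list. Typical sites were far lower: the peak at chr1:171461546-171461845, near the median in both ChIP libraries, had 18.6, 4.43 and 2.06. Another at chr19:55913212-55913511 had 18.3, 4.50 and 0.314, so sites alike in ChIP coverage spanned a wide range in the third library.

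The first and second library ranked the sites alike in broad terms. Across the 5551 peaks the Spearman correlation of centre coverage was 0.656 and the Pearson correlation of log2 enrichment 0.715. Both are descriptions, since the peaks share the same pair of libraries. Of the 556 highest peaks of each library, 336 were common to both, 60.4% of each list. Within the first decile of the peak list the Spearman correlation was 0.670, and within the last decile 0.423. Enrichment was higher in the first library at 5483 peaks (98.8%) and higher in the second at 68.

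At the listed sites the gap between the replicates was wide and differed with the level. The median log2 difference of first minus second library was 1.56 (SD over peaks 0.64), and the central 90% of peaks ran from 0.47 to 2.59. In the lowest quartile of peaks by mean enrichment the median difference was 1.79, and in the highest quartile 1.33. The quartiles were formed from the same coverage, and the order of the list followed the first library, as given below. The gap and its change with level therefore describe the listed sites and not the replicates in general.

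**Figure D3:**
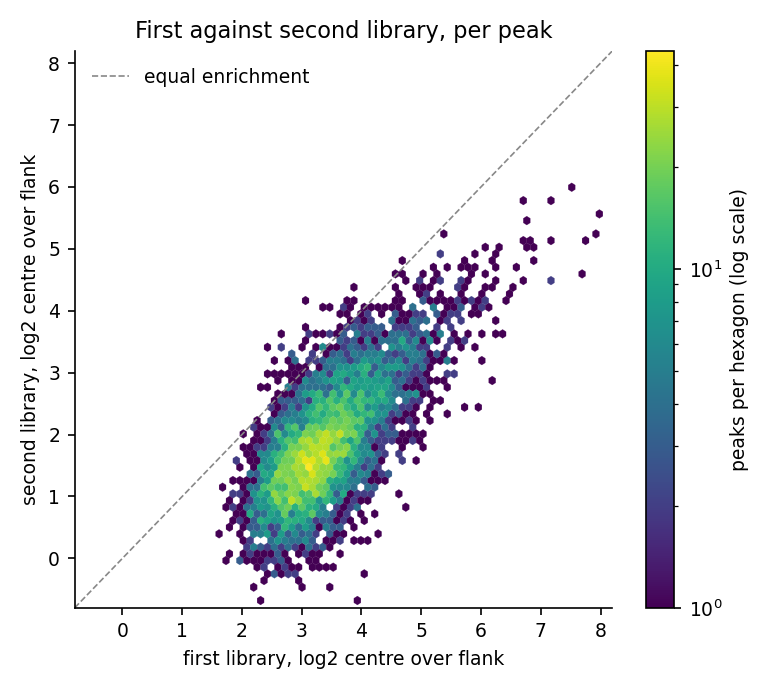
Enrichment of each of the 5551 peaks in the first library (horizontal axis) and the second (vertical axis), both as log2((centre + 1)/(flank mean + 1)), with hexagons coloured by the number of peaks on a log scale. Nearly all peaks lie below the dashed line of equal enrichment, 98.8% of them higher in the first library.

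Single sites departed from this pattern in both directions. At chr12:31965923-31966222 coverage was 50.1 in the first library, 1.81 in the second and 0.489 in the third, the largest excess of the first library (3.91 on the log2 scale) among peaks over 2 times the flank in both. At chr13:59193180-59193479 it was 124.4, 7.82 and 0.326, and at chr3:55560172-55560471 it was 35.5, 1.74 and 0.967. Among 5551 peaks these took places 333, 42 and 700 in the first library, and places 5035, 1341 and 5069 in the second. In the opposite direction, chr1:72273228-72273527 had 15.3, 27.2 and 0.699. At chr11:33133995-33134294 coverage was 9.21, 16.6 and 0.280, and at chr7:145797722-145798021 it was 11.4, 18.9 and 0.501. There the log2 enrichment of the first library minus the second was -1.06, -1.06 and -0.96, and the third library was below 2 times its flank mean in all 6 of these peaks.

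The peaks were sharp and centred in the ChIP libraries, narrowest in the first. The width of the mean profile at 0.5 of its height above the flank was 201 bp in the first library, 306 bp in the second and 484 bp in the third. The highest point of the mean profile lay at the peak centre in all 3 libraries. The highest single bin of a peak's own 4-kb window lay within 150 bp of the centre at 91.7% of peaks in the first library (95% interval 91.0% to 92.4%). This share was 79.6% in the second library (78.6% to 80.7%) and 32.9% in the third (31.7% to 34.2%). Bins picked evenly would give 8.07%. The windows are centred on sites called from ChIP reads, so centring in whichever library served for calling was set by that choice. The highest bins of the first and second library lay a median of 50 bp apart, and within 100 bp of each other at 74.5% of peaks. The median distance from the third library's highest bin was 375 bp for the first library and 400 bp for the second. Coverage summed over 1000 bp on the left was 0.929 times that on the right in the first library, 0.952 in the second and 0.986 in the third.

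At 460 peaks the first library was highest more than 150 bp from the centre. Another Nkx2.2 centre lay under 2000 bp away at 297 of them (64.6%), against 6.44% of the other peaks. Centring in the second library rose with the strength of the site. In ascending quartiles of mean enrichment, the share of peaks with its highest bin within 150 bp was 57.9%, 81.9%, 88.0% and 90.8%. In the first library the same shares were 91.4%, 92.1%, 91.3% and 92.0%. The quartiles of peaks were formed from the same coverage, so these shares are descriptions. From the lowest to the highest of these groups the width went from 188 to 205 bp in the first library and from 331 to 297 bp in the second. Grouped by place in the list instead, both libraries were narrowest at its start: from the first to the last decile the width went from 190 to 262 bp in the first library and from 272 to 436 bp in the second. The direction in the first library thus depended on the grouping.

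The order of the list followed the first library. The list is not sorted by position and carries no score. Counted from the end of the list, the rank correlation of a peak's place with the highest bin within 250 bp was 0.931 in the first library, 0.547 in the second and -0.27 in the third. Median centre coverage fell from 52.8 in the first decile of the list to 10.8 in the last in the first library, and from 13.5 to 2.83 in the second. In the third library it was 0.967 in the first decile and 1.71 in the last. Peaks late in the list were thus lower in both ChIP libraries and higher in the third. The share of peaks over 2 times the third library's flank was 32.7% in the first decile and 72.4% in the last, beside 50.4% over all peaks. In the last decile the quartiles of the second library (1.99 to 4.03) and of the third (1.14 to 2.29) overlapped.

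**Figure D4:**
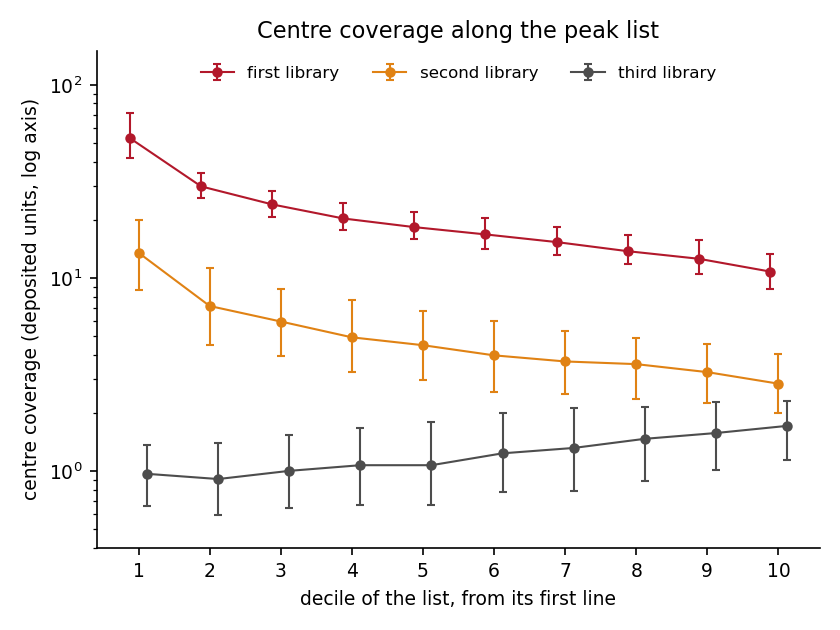
Median centre coverage (vertical log axis, deposited units) in each decile of the Nkx2.2 list from its first line (horizontal axis), with bars from the lower to the upper quartile over peaks. The first library falls from 52.8 to 10.8 and the second from 13.5 to 2.83, while the third rises from 0.967 to 1.71.

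Overlap with Nkx6.1 and Olig2 peaks was highest among the early lines of the list, and overlap with Gli3 peaks was not. Over all Nkx2.2 peaks, 896 (16.1%) shared at least 1 bp with a Nkx6.1 peak, 1348 (24.3%) with an Olig2 peak and 439 (7.91%) with a Gli3 peak, called in dorsal cells of another line without SAG. In the first decile of the list these shares were 37.1%, 41.0% and 5.40%, and in the last decile 5.23%, 10.8% and 10.3%. The 560 peaks overlapped by both Nkx6.1 and Olig2 had median coverages of 27.6, 9.43 and 0.990 in the first, the second and the third library. The 336 with Nkx6.1 but not Olig2 had 22.5, 6.30 and 0.844, and the 788 with Olig2 but not Nkx6.1 had 21.2, 5.80 and 1.07. The 3867 with neither had 16.8, 3.88 and 1.35, and the medians over all peaks were 18.4, 4.43 and 1.20. Both ChIP libraries were therefore highest where all 3 ventral factors had peaks and lowest where neither Nkx6.1 nor Olig2 had one. The third library was highest in the latter class, of whose peaks 277 (7.16%) overlapped a Gli3 peak. The interquartile ranges of the first library, 20.6 to 45.1 with both factors and 12.8 to 23.0 with neither, overlapped. Peaks overlapped by Gli3 had medians of 19.1 in the first library and 1.69 in the third, against 18.4 and 1.16 without. These differences were not tested, and no comparison with chance was made.

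The third library was the flattest of the table by its ratio to the flank, its share of enriched peaks and the place of its highest bin, yet it was not flat. Its centre lay 2.33 times above its flank on average, while the third library of the Nkx6.1 table lay 1.55 times above at Nkx6.1 peaks and that of the Olig2 table, at Olig2 peaks, 1.62 times. The share of peaks over 2 times the flank was 50.4% at Nkx2.2 peaks, 26.0% at Nkx6.1 peaks and 28.2% at Olig2 peaks. Its highest bin lay within 150 bp of the centre at 32.9% of Nkx2.2 peaks, and in the other tables at 13.8% of Nkx6.1 and 16.8% of Olig2 peaks. The tables were scaled separately, so these are ratios within each library and the difference was not tested.

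Across all Nkx2.2 peaks the Spearman correlation of the third library with the first was -0.17 and with the second -0.17. Within parts of the list the sign turned: in the first decile the values were 0.086 and 0.066, and in the last 0.197 and 0.106. Of all peaks, 25 of the 556 highest peaks of the first library (4.50%) were among the 556 highest of the third. Along deciles of its own coverage the median of the third library ran from 0.338 to 3.01. In the lowest of these deciles the overlap with Nkx6.1 peaks was 21.4% and in the highest 1.98%. Overlap with Olig2 peaks was 20.5% in the lowest, at most 33.5% in the middle and 7.57% in the highest decile. Overlap with Gli3 peaks, from the cells without agonist, ran from 1.26% to 13.0%. In the third library's lowest decile its own centre is low by the choice of peaks. There the highest point of the mean profile was 55.9 in the first library and 11.6 in the second. Over all peaks that point was 52.1 and 10.2, and in the third library's highest decile 37.3 and 6.32. In the third library's highest decile the width at 0.5 of the height was 220 bp in the first library and 371 bp in the second. Over all peaks it was 201 and 306 bp.

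**Figure D5:**
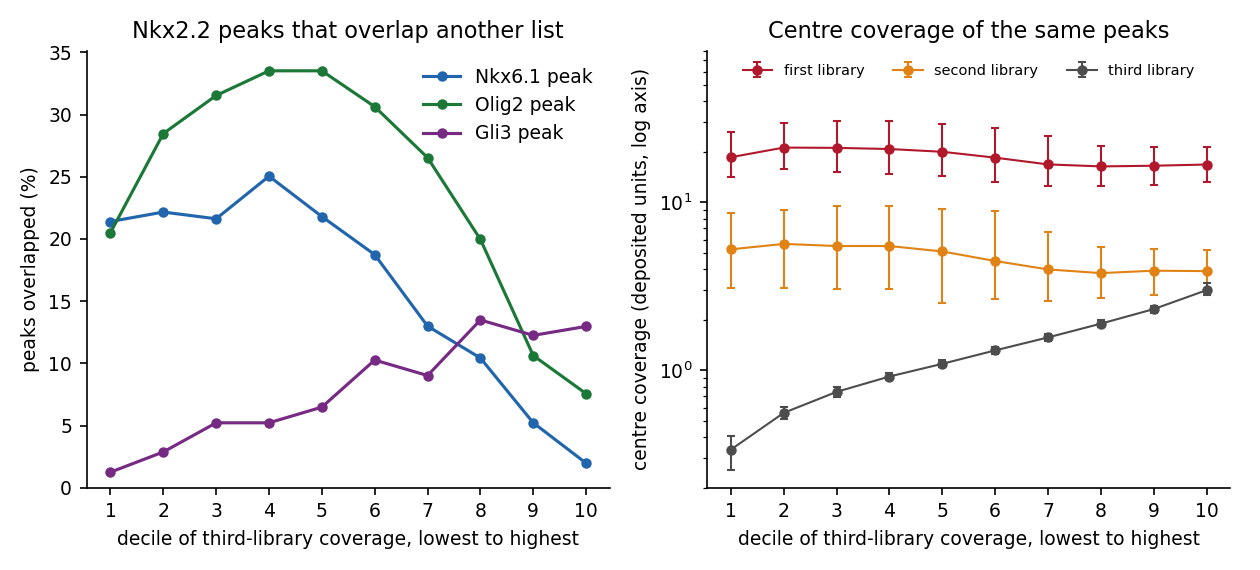
Nkx2.2 peaks in deciles of third-library centre coverage, from lowest to highest (horizontal axes). Left, the percent of peaks overlapped by a Nkx6.1, Olig2 or Gli3 peak, where Nkx6.1 falls to 1.98% and Gli3 rises to 13.0%; right, median centre coverage of each library (log axis, deposited units) with quartile bars, where the third library rises by construction and the medians of the first and the second change less.

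The sites with the highest third-library coverage were of mixed kinds. At chr8:20020267-20020566 coverage was 28.7 in the first library, 24.0 in the second and 10.4 in the third, and this peak overlapped a Gli3 peak. At chr8:73153627-73153926 it was 8.93, 3.00 and 6.07. At chr1:90173984-90174283, also overlapped by Gli3, it was 46.4, 7.82 and 6.03. At chr2:34627436-34627735 the values were 17.8, 4.13 and 5.42, and at chr15:76342272-76342571 they were 18.3, 4.95 and 5.39. In 3 of these 5 peaks the third library exceeded the second, and in none of them the first. None of the 5 overlapped a Nkx6.1 or Olig2 peak, which were rare in the whole highest decile of the third library (1.98% and 7.57% of peaks).

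A second input gave a further reading of the same sites. The library in the third place of the Olig2 table could be read at the 1592 Nkx2.2 centres within 1500 bp of an Olig2 centre, where its mean was 2.13 times its flank, and the mean of the third Nkx2.2 library was 1.96 times its own. Their Spearman correlation over these peaks was 0.472, as a description. Across ascending quartiles of the third library at Nkx2.2 peaks, with medians of 0.897 to 3.14 times its flank, the median of the other input ran from 1.37 to 2.79 times. The sites that were high in one input were thus on the whole high in the other. At 156 Nkx2.2 centres lying 500 to 1500 bp from the Olig2 centre, the other input was 2.58 times its flank, and 1.33 times at the mirror position on the far side of the Olig2 peak. It was above the mirror position at 116 of these peaks (74.4%). In the Nkx6.1 table, 67 such centres gave 2.07 and 1.30 times.

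The same reading showed Olig2 and Nkx6.1 ChIP coverage at nearby Nkx2.2 centres. At the 156 centres apart from the Olig2 peak, the first and second library of the Olig2 table had means of 4.78 and 6.04 times their flank, against 2.00 and 2.08 times at the mirror position. They were above the mirror position at 128 and 136 of the 156 peaks. At the 67 centres apart from a Nkx6.1 peak, the libraries of that table had 4.90 and 5.08 times, against 1.83 and 1.95 times, and exceeded the mirror at 57 and 62 peaks. At these 156 and 67 centres alone, mean coverage of the nearby factor was above that at the mirror position. The input moved the same way by a smaller factor. It stood at 2.58 against 1.33 times its flank near Olig2 peaks, and at 2.07 against 1.30 times near Nkx6.1 peaks. Nkx2.2 centres over 1500 bp from such a peak were not read, and the differences were not tested.

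Nkx2.2 sites on the X chromosome had lower flanks in all 3 libraries and ChIP medians close to those elsewhere, differences that were not tested. At its 42 peaks the flank mean was 0.266 in the first library, 0.331 in the second and 0.319 in the third, against 0.944, 0.604 and 0.599 at the 5508 autosomal peaks. The median centre coverage of the third library was 0.582 on X and 1.21 on the autosomes, where single chromosomes ran from 0.978 (chromosome 3) to 1.57 (chromosome 17). In the ChIP libraries the medians on X were 18.7 and 4.36, against 18.4 and 4.43. The Y chromosome held 1 peak.

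Sites crowded in a few places. Outside chromosome 18, the 100-kb window with most peaks, chr6:52100001-52200000, held 9, with coverage of 11.0 to 29.6 in the first library, 2.46 to 20.7 in the second and 0.920 to 2.67 in the third. Of these 9 peaks, 4 overlapped a Nkx6.1, 4 an Olig2 and 2 a Gli3 peak, beside 16.1%, 24.3% and 7.91% over all Nkx2.2 peaks. The strongest of them in the first library, chr6:52114987-52115286, had 29.6, 4.11 and 1.40 and overlapped a Nkx6.1 and a Gli3 peak. The strongest in the second library, chr6:52103345-52103644, had 23.4, 20.7 and 0.920 and overlapped both a Nkx6.1 and an Olig2 peak. The next window, chr11:96400001-96500000, held 8 peaks, of which 7 overlapped an Olig2 and 5 a Nkx6.1 peak, beside 24.3% and 16.1% over all Nkx2.2 peaks. Its highest, chr11:96443229-96443528, had 35.7, 16.5 and 0.920. Its lowest, chr11:96484131-96484430, overlapped no other list and had 11.1, 2.02 and 1.22. Several of these 8 peaks lie within 300 bp of another and repeat its bins, so their overlaps are not independent counts. Genes at these sites are not named, since no annotation of mm9 was used here.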

How the data were processed

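The Nkx2.2 peak list and the coverage table of 3 libraries were used as deposited, with the lists and tables of the other factors beside them. Bowtie2 2.2.4, HOMER and the mm9 build are named in the submitters' processing notes. Which tool made which file, the scaling, the peak threshold and whether replicates were pooled for calling are not given in the sources used here. Per the file headers, the table gives coverage in bins of 25 bp up to 2000 bp from each peak centre. No columns of other samples were present (0 left out).

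Centre coverage was the mean within 250 bp, and the flank the outermost 250 bp on each side. Values whole within 0.02 of a step were called whole. Enrichment was log2(centre + 1) minus log2(mean flank + 1). The first and second library were compared with the third by limma 3.58.1 (R 4.3.3, empirical Bayes with trend, two-sided, adjusted p under 0.05 over all peaks). Shares have Wilson 95% intervals. Overlap needed 1 bp. Coordinates are printed 1-based.

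Sites were named by rule: the 5 highest in the first and second library, the 5 highest in the third, 3 for each direction of disagreement among peaks over 2 times the flank in both, 3 nearest the median (2 of them printed), and the 2 fullest windows of 100 kb, without chromosome 18. From the windows the strongest and weakest peaks were picked after their values were seen. The sites, groupings and tests were chosen with earlier results of these data known. Widths at 0.5 of the height, the flank mean and the limma fit were tested on simulated data, and the enrichment measure was not. Alternatives covered the windows, the pseudocount, filters and scaling.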

Additional observations from a re-analysis of the deposited data

How the results depend on the processing

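Of 66 alternative values for 24 results, 57 stayed within a set limit and 9 did not. The limit was 1 SD between the first and second library, 1.5 times the value or its 95% interval. The third library's enrichment had a limit of 0.585 on the log2 scale, so 0.90 with a pseudocount of 0.1 passed beside 0.46 as reported. For the enrichment of the first and second library the SD was 1.11 on the log2 scale, a wide limit. Leaving out either library could hardly move the median difference beyond such an SD, and setting both to 1 median leaves it unchanged by construction. Those values are therefore no sign of stability. At over 3 times the flank, with a centre of 100 bp and with the right-hand flank only, the share of enriched peaks in the second library was 90.5%, 97.1% and 95.6% (96.3% as reported), and in the third 28.2%, 56.4% and 47.4% (50.4% as reported). The first library stayed at 100%. The count of peaks called by limma was 0 as reported, 55 with a pseudocount of 0.1, and 4825 with the first and second library set to 1 median, an alternative chosen after seeing the data; the other settings gave 0. The median log2 difference from the third library ranged from 1.22 to 2.87 when the first or the second library was left out, values with no test. A base line at 0 widened the third library's profile at 0.5 of its height to 1172 bp. With a pseudocount of 0.1, median enrichment was 4.15, 2.69 and 0.90 in the first, the second and the third library. No value changed direction. No paired analysis was possible, because 1 library stood in the third place beside both ChIP libraries. The table's columns also carry no replicate numbers. Depth is unknown, the first and second library differ by a median log2 of 1.56, and there is 1 library in the third place, so the spread of an input over replicates was not measured.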
